A study of Mus musculus with 21 samples.

Results

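Transforming growth factor beta (TGF-beta) genes were followed across mouse hearts in which a high-fat diet and a renin-expressing virus were given alone or together. The set held the 3 ligands Tgfb1, Tgfb2 and Tgfb3, the receptors Tgfbr1, Tgfbr2 and Tgfbr3, and the latent TGF-beta binding proteins Ltbp1, Ltbp2, Ltbp3 and Ltbp4. It was chosen by gene name, 10 genes of the 19096 in the deposited gene matrix, and all 10 had enough reads to enter the test over 15216 genes.

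RNA of freeze-clamped heart tissue was sequenced in 21 libraries of male C57BL/6NJ mice, 8 to 10 weeks old at the start. The mice ate chow or a high-fat diet (60% of kcal as fat) for 10 weeks. Renin came from an adeno-associated virus (AAV-Renin) injected behind the eye, and hearts were taken 6 weeks after injection. Chow control held 4 libraries, chow renin 6, high-fat control 6 and high-fat renin 5. Controls got no renin: the sample titles say novirus, while the series text speaks of a null vector. High-fat diet with renin models HFpEF, a heart failure in which the ejection fraction is preserved, and the other groups take its parts singly. The promoter that drives renin in the vector, and the cells that take it up, are not given in the sources used here.

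TGF-beta ligands leave the cell folded inside a latency peptide, and binding proteins tie that latent complex to the extracellular matrix. Integrins, thrombospondin and proteases free the ligand, which binds the type II receptor (Tgfbr2). The type II receptor then activates the type I receptor (Tgfbr1), and SMAD proteins carry the signal to the nucleus. Betaglycan (Tgfbr3) is a co-receptor that presents ligand, TGF-beta2 above all. In heart the pathway is known for turning fibroblasts into matrix-making cells.

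Libraries held 18.7 to 29.3 M estimated reads, with 18.7 to 21.4 M in chow control and at least 22.8 M elsewhere. Thinned to the smallest library, high-fat renin against chow control called 3 members, as it did unthinned. Other counts moved. Against high-fat control thinning called 1 higher and 2 lower, where 3 and 2 were called unthinned. Against chow renin it called 6 higher and 1 lower in place of 5 and 1, and in the interaction of diet and renin 1 in place of 2. Unless stated, CPM are reads of a gene scaled to library size and between libraries by the TMM method. Cardiomyocyte markers were read in every library, 6 of 6, with Myh6 at 19988 to 34072 CPM when scaled to library size alone. The summed CPM of the 6 markers was 40104 to 47106 in high-fat renin, wholly below chow control at 49716 to 60656. It was 46015 to 48294 in chow renin and 46520 to 54905 in high-fat control. Myh6 held most of these sums. Scaled to library size alone, its group mean was 23553 CPM in high-fat renin and 32492 in chow control. On that scale the means of Tnnt2, Pln and Tnni3 were lowest in high-fat renin too. Mean Ryr2 was highest there, at 995 CPM against 896 to 962 in the other groups. Mean Actc1 was 8149 CPM there, below chow control (8522) but above high-fat control (6948) and chow renin (6448). As a mean log2 CPM of the 6 markers, high-fat renin (11.979 to 12.145) lay below high-fat control too (12.158 to 12.379). The 5 proliferation markers summed to 12.03 to 38.6 CPM in high-fat renin and 25.9 to 35.2 in chow renin, against 11.8 to 12.3 in chow control and 9.54 to 18.7 in high-fat control. The part of either list in the members' results was not tested. Atrial markers (Sln, Myl4, Myl7 and Dkk3, 4 of 5 listed genes tested, Bmp10 at or near 0) set 5 libraries apart: chow control 3, chow renin 1 and 3, high-fat control 3 and high-fat renin 3. The threshold of the atrial score was set after the data were seen. Their atrial score, the mean log2 CPM of those genes, was above 6, against at most 1.53 elsewhere, and summed atrial CPM ran from 5.63 to 694 in chow control, 13.2 to 501 in chow renin, 4.99 to 639 in high-fat control and 10.9 to 470 in high-fat renin. Adipose scores (3 of 5 listed genes tested) were also highest in these 5 libraries, at -0.22 to 2.03, against at most -1.31 elsewhere. The results below are given with all libraries, and also without these 5 where that changes the call of a member. For other genes of the pathway the numbers of calls lost and gained without them are given.

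The sequences just upstream of 4 members are shown, since in high-fat renin hearts Tgfb2 and Tgfbr1 were higher than in each other group and Ltbp1 lower than in both control groups, while Tgfb1 did not pass in any comparison. They are RefSeq start-site stretches on GRCm38, written 5′ to 3′ on the strand of the gene, without bases that lie in annotated exons. RefSeq gave entries for 8 of the 10 members, and the Ltbp2 entry lay wholly inside annotated exons. Capitals mark matches, on either strand, to any of 7 short motifs. The element bound by SMAD proteins was searched as CAGACA, and the site of the AP-1 factors as TGANTCA. The E-box of helix-loop-helix factors was written CACGTG, while the core of the cyclic AMP response element was TGACGT. The remaining motifs were the TATA box of many tissue-specific genes as TATAAA, the GC box of Sp factors as GGGCGG, and the element of the TEAD factors as CATTCC. The stretches are Tgfb2 at chr1:186706157-186706239 (minus strand), Tgfbr1 at chr4:47352972-47353221 (plus), Ltbp1 at chr17:75005279-75005528 (plus) and Tgfb1 at chr7:25686752-25687001 (plus).
Tgfb2: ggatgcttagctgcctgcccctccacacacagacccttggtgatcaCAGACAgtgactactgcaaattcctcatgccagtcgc
Tgfbr1: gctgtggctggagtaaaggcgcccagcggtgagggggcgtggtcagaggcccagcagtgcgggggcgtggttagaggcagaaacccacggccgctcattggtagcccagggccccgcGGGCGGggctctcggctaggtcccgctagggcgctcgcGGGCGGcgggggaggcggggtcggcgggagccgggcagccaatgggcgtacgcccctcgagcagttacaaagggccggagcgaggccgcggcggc
Ltbp1: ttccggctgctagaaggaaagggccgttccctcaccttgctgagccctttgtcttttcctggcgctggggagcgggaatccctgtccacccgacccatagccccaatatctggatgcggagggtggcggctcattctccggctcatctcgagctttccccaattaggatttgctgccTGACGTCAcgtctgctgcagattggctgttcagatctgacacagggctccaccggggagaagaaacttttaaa
Tgfb1: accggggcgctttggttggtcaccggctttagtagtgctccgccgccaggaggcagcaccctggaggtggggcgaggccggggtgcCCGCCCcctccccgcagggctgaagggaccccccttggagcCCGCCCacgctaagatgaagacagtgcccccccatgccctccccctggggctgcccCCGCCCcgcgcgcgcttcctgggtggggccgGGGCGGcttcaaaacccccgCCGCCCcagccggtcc

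The stretches differ in make-up. Tgfb1 (75.2% G and C) and Tgfbr1 (74.8%) lay above the 95th percentile of all 250-base upstream stretches (73.6%, median 52.4%), and both carried the GC box, 5 times and 2 times, a motif found in 32.7% of 32851 such stretches. Ltbp1 held the TGACGT core on both strands in overlapping copies, a motif found in 6.47%. Only 83 bases of the Tgfb2 entry were free of exons, 168 to 250 bases before its start. They held 1 CAGACA, found in 6.08% of stretches cut to the same window. That motif was not in Tgfb2 alone: RefSeq lists a second start site for Ltbp1 and for Tgfbr1, not printed here, whose 250-base stretches held it 2 times and 1 time, against 17.1% of all such stretches. These matches describe letters and were not tested as sites.

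Levels between genes were compared per length, in TPM (a length-corrected share of transcripts, summed over a gene's transcripts, mean ± SD over all 21 libraries). Ltbp4 was the most abundant of the set at 78.2 ± 11.5 TPM, and its range, 62.2 to 99.5, did not reach any other member. Ltbp3 (17.3 ± 5.41) and Ltbp1 (13.0 ± 2.0) came next and overlapped. Tgfbr2 (9.44 ± 1.57) and Tgfb1 (9.18 ± 1.46) overlapped almost fully. Tgfb3 (5.29 ± 1.30) lay below Tgfb1, with a highest library of 7.425 against a lowest of 7.431 for Tgfb1, and it overlapped Tgfbr3 (4.66 ± 0.87). Tgfb2 (2.84 ± 1.08), Tgfbr1 (1.96 ± 0.51) and Ltbp2 (1.66 ± 1.23) were the lowest, and each of these neighbours overlapped the next. In CPM, Ltbp2 spread most between libraries, 12.2-fold from lowest to highest, and Tgfb1 least, 1.46-fold.

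A few short transcripts weigh on TPM. Ltbp1-207, a processed transcript of 519 bases, held 40.8% of Ltbp1 TPM but 3.13% of its estimated reads. It supplied a mean of 5.30 of the 13.0 TPM, and without it Ltbp1 would lie below Tgfbr2 and Tgfb1 in mean TPM. In high-fat control 1, Ltbp3-209 held 59.5% of Ltbp3 TPM from 2.0 reads, and Ltbp3 stood at 33.7 TPM there but 13.6 without that transcript. Differences between groups were tested on reads, and values in CPM follow.

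High-fat renin hearts were compared with each other group in turn. Against chow control 3 of 10 members were called, Tgfb2 and Tgfbr1 higher and Ltbp1 lower, where 8.31% of all genes tested were called (4.05% higher, 4.26% lower). Without the 5 libraries with atrial transcripts 7 of 10 were called, 5 higher and 2 lower, against 8.34% of all genes. Against high-fat control 5 of 10 were called, 3 higher and 2 lower (11.1% of all genes, 6.07% higher and 5.08% lower). Without those 5 libraries 4 were called higher and 0 lower there, against 9.83% of all genes. Against chow renin 6 of 10 were called, 5 higher and 1 lower (22.6% of all genes, 9.80% higher and 12.8% lower). Without those 5 libraries 6 were called higher and 1 lower there, against 16.2% of all genes. The interaction, which asks whether renin acts differently on the 2 diets, called 2, both positive (10.4% of all genes, 3.14% higher and 7.30% lower). Without those 5 libraries it called 1, against 7.17% of all genes.

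Renin on chow called 0 of 10 members by edgeR and by DESeq2, with 2 at an unadjusted p under 0.05 (Ltbp1 and Ltbp4, both with negative estimates), where 13.5% of all genes passed (10.1% higher, 3.36% lower). The high-fat diet alone called 0 by edgeR and by DESeq2, with 0 at an unadjusted p under 0.05, where 0.0657% of all genes passed (0.0131% higher, 0.0526% lower). The median absolute log2 difference of the members was 0.39 against 0.16 over all genes in high-fat renin against chow control, 0.15 against 0.14 in chow renin and 0.09 against 0.11 in high-fat control. These comparisons share chow control libraries. In whole tissue, fewer cells of a type and less RNA per cell cannot be told apart.

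**Figure D1:**
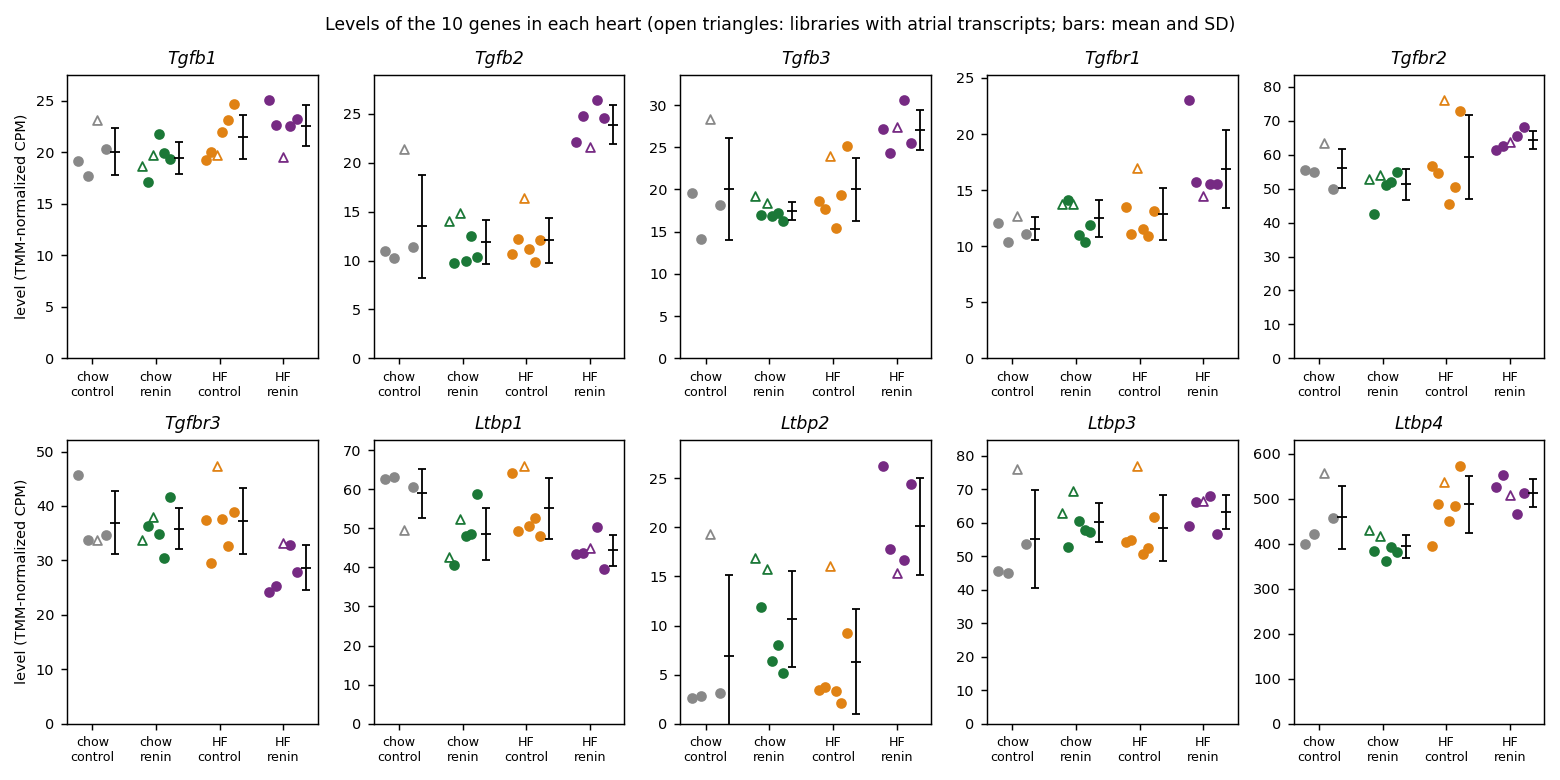
Level of each member in every heart, in TMM-normalized CPM on linear axes from 0, by group (HF, high-fat). Points are libraries, open triangles the 5 libraries with atrial transcripts, and bars the mean and SD (the lower bar of Ltbp2 in chow control is cut at 0); all 5 high-fat renin libraries of Tgfb2 (21.6 to 26.4 CPM) sit above every other library, and among the controls the open triangles hold the highest Ltbp2 value of each group (19.3 and 16.03 CPM).

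Tgfb2 (chr1:186622792-186705989 on GRCm38), the isoform that depends most on betaglycan, was higher in high-fat renin hearts than in each other group. Its level in high-fat renin was 22.1, 24.8, 21.6, 26.4 and 24.5 CPM. Chow control gave 11.01, 10.2, 21.4 and 11.3 CPM. In chow renin the lowest, median and highest were 9.70, 11.5 and 14.9 CPM, and in high-fat control 9.89, 11.6 and 16.3 CPM. All 5 high-fat renin libraries lay above every library of the other groups, though chow control 3, one of the libraries with atrial transcripts, came close at 21.4 CPM. Tgfb2 rose by 0.82 on the log2 scale against chow control (SE 0.19, edgeR adjusted p 0.0101), by 0.98 against high-fat control (SE 0.17, adjusted p 0.00149) and by 1.0 against chow renin (SE 0.16, adjusted p 0.000104). Mean CPM was 1.77, 1.98 and 2.0 times as high.

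Neither treatment alone moved Tgfb2 past the test. Its log2 difference from chow control was -0.18 (SE 0.18, adjusted p 0.615) in chow renin and -0.16 (SE 0.18, adjusted p 0.797) in high-fat control, and without chow control 3 both turned positive, at 0.13 and 0.15, and passed neither (adjusted p 0.626 and 0.7). Renin's effect was larger on high-fat diet than on chow by 1.16 (SE 0.24, adjusted p 0.00262). Without the 5 libraries with atrial transcripts, Tgfb2 stood at 1.16 against chow control (SE 0.11, adjusted p 1.85e-05), at 1.12 against high-fat control (adjusted p 1.69e-06) and at 1.14 in the interaction (adjusted p 5.62e-05). The clock score (late minus early clock genes) was 2.91 to 4.11 in high-fat renin against 4.24 to 4.61 in chow control. With that score as a covariate, Tgfb2 no longer passed against chow control (0.71, adjusted p 0.616) or high-fat control (0.91, adjusted p 0.211), while the interaction was 1.18 (adjusted p 0.00304). That fit called 0 of all 15216 genes in both of the former comparisons, against 1265 and 1696 without the score, so the loss is not particular to Tgfb2. The part of the clock genes in these results was not tested.

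Tgfb3 (chr12:86056745-86079041) rose by less, and against 2 of the 3 other groups. High-fat renin libraries held 27.2, 24.3, 27.4, 30.6 and 25.5 CPM. Chow control held 19.6, 14.2, 28.3 and 18.1 CPM, where chow control 3 again stood high. The lowest, median and highest were 16.3, 17.1 and 19.2 CPM in chow renin and 15.5, 19.0 and 25.1 CPM in high-fat control. High-fat renin lay wholly above chow renin, and 4 of 5 libraries lay above all of high-fat control. The rise was 0.63 against chow renin (SE 0.13, edgeR adjusted p 0.0012) and 0.43 against high-fat control (SE 0.13, adjusted p 0.0379). With 1 library left out, the latter call held in 2 of 11 fits, those without high-fat control 3 or 6, and adjusted p reached 0.0861 in the others. It was also lost with the clock score (0.37, adjusted p 0.582). Against chow control the log2 difference was 0.43 (SE 0.15) and did not pass (adjusted p 0.0766), but without the libraries with atrial transcripts it was 0.62 (adjusted p 0.00735). The interaction for Tgfb3 was 0.63 (SE 0.19, adjusted p 0.0393), and 0.50 without those libraries (adjusted p 0.0944). It held in 6 of 21 fits that left out 1 library, with adjusted p from 0.00608 to 0.112.

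Tgfb1 (chr7:25687002-25705077), the isoform most studied in fibrosis, passed in none of the 6 comparisons. Chow control held 19.1, 17.7, 23.1 and 20.3 CPM and high-fat renin 25.0, 22.6, 19.5, 22.5 and 23.2 CPM, with overlap. Its log2 difference was 0.17 (SE 0.09, edgeR adjusted p 0.262) against chow control and 0.22 (SE 0.08, adjusted p 0.0573) against chow renin. The latter passed without chow renin 4 (0.25, adjusted p 0.0376) or high-fat renin 3 (0.27, adjusted p 0.022). Of the 3 ligands, Tgfb2 made up 20.5 ± 2.58% of the summed ligand TPM in high-fat renin and 13.8 ± 3.24% in high-fat control, and Tgfb1 made up 47.8 ± 4.67% and 56.0 ± 4.78%. These shares are descriptions.

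**Figure D2:**
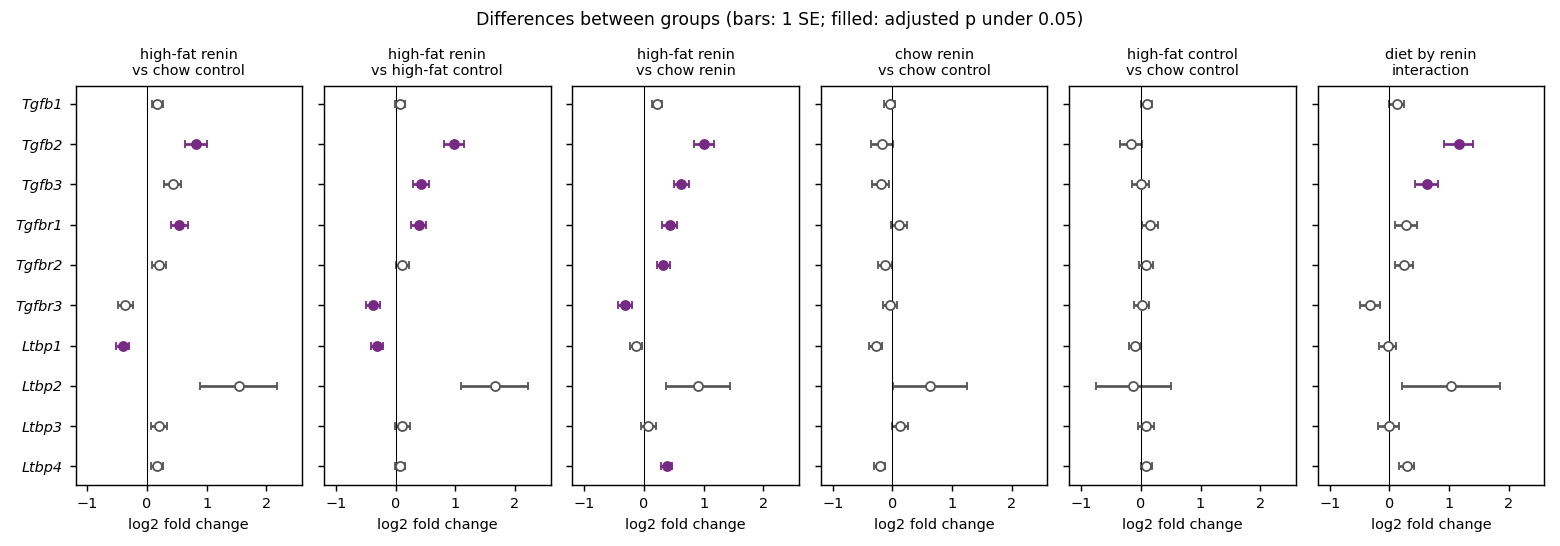
Log2 fold change of each member in the 5 pairwise comparisons and the interaction, with bars of 1 SE. Filled points passed at an adjusted p under 0.05; Tgfb2 is filled in each of the 3 comparisons of high-fat renin and in the interaction, and no member is filled for either treatment alone.

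In high-fat renin hearts the type I receptor was higher than in each other group, and the co-receptor was lower than in high-fat control and chow renin. Tgfbr1 (chr4:47353222-47414931), the signalling type I receptor, was at 23.0, 15.8, 14.5, 15.5 and 15.6 CPM in high-fat renin. Chow control was at 12.1, 10.4, 12.7 and 11.1 CPM. Chow renin ran from 10.4 to 14.1 CPM with a median of 12.8, and high-fat control from 10.9 to 17.0 CPM with a median of 12.3. All 5 high-fat renin libraries were above chow control and chow renin, and 1 of 5, replicate 1, was above all of high-fat control. Tgfbr1 rose by 0.54 against chow control (SE 0.14, edgeR adjusted p 0.0196), 0.43 against chow renin (SE 0.12, adjusted p 0.0132) and 0.39 against high-fat control (SE 0.12, adjusted p 0.0438). Without high-fat renin 1 those values were 0.40 (adjusted p 0.0658), 0.27 (adjusted p 0.0969) and 0.25 (adjusted p 0.205). The call against chow control was also lost without chow control 2 or 4 (adjusted p 0.0696 and 0.0644), and that against high-fat control held in 4 of 11 such fits, those without high-fat control 1 or 3 or high-fat renin 3 or 4. With the clock score as a covariate Tgfbr1 was at 0.11 against chow control (adjusted p 0.931) and 0.09 against high-fat control (adjusted p 0.909), and at 0.34 against chow renin (adjusted p 0.0238).

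Tgfbr2 (chr9:116084293-116175360), the ligand-binding type II receptor, was called against chow renin only. It was at 61.4, 62.5, 63.7, 65.5 and 68.3 CPM in high-fat renin, all above chow renin, whose lowest, median and highest were 42.4, 52.5 and 54.9 CPM. The rise was 0.33 (SE 0.10, edgeR adjusted p 0.0249), and missed without chow renin 1 (adjusted p 0.0515), chow renin 2 (0.0647) or high-fat renin 5 (0.0637). High-fat control spread from 45.6 to 76.0 CPM around all the high-fat renin libraries, with a log2 difference of 0.11 (SE 0.10, adjusted p 0.523).

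Tgfbr3 (chr5:107106570-107289629) went the other way. High-fat renin was at 24.1, 25.4, 33.2, 32.9 and 27.8 CPM, all below chow control at 45.7, 33.7, 33.7 and 34.7 CPM. Chow renin ran from 30.5 to 41.6 CPM with a median of 35.6, and high-fat control from 29.5 to 47.4 CPM with a median of 37.5. In both cases 3 of 5 high-fat renin libraries lay below all of the other group. Tgfbr3 fell by 0.38 against high-fat control (SE 0.11, edgeR adjusted p 0.0366) and by 0.32 against chow renin (SE 0.11, adjusted p 0.0457). Against chow control the difference was -0.37 (SE 0.13) and did not pass (adjusted p 0.0753), while without the libraries with atrial transcripts it was -0.48 (adjusted p 0.0295). The call against high-fat control missed without those libraries (-0.36, adjusted p 0.0566) and with the clock score (-0.17, adjusted p 0.779). It held in 5 of 11 fits that left out 1 library (lost without high-fat control 3, 4 or 6 or high-fat renin 1, 2 or 5, adjusted p up to 0.119), and the call against chow renin in 4 of 11 (lost without chow renin 2, 3, 4 or 6 or high-fat renin 1, 2 or 5, up to 0.12). The clock score also ended the call against chow renin (-0.28, adjusted p 0.0667), and with the central nervous score that estimate was positive (0.21, adjusted p 0.997). Its share of summed receptor TPM was 22.7 ± 3.20% in high-fat renin and 30.4 ± 2.90% in high-fat control.

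Ltbp2 (chr12:84783212-84876532) had the widest range of the binding proteins as a ratio, 12.2-fold in CPM from lowest to highest library. It is a fibrillin-associated matrix protein that, unlike its relatives, does not bind latent TGF-beta. High-fat renin was at 26.3, 17.8, 15.3, 16.7 and 24.4 CPM. Chow control was at 2.59, 2.78, 19.3 and 3.10 CPM. Chow renin ran from 5.18 to 16.8 CPM with a median of 9.93, and high-fat control from 2.16 to 16.03 CPM with a median of 3.58. The high values of the 2 control groups, 19.3 and 16.03 CPM, were chow control 3 and high-fat control 3, both libraries with atrial transcripts, and the 2 highest of chow renin, 16.8 and 15.8 CPM, were replicates 1 and 3, which carry them too.

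With all libraries the log2 difference of Ltbp2 in high-fat renin was 1.53 against chow control (SE 0.64), 1.66 against high-fat control (SE 0.56) and 0.91 against chow renin (SE 0.54), and none passed (edgeR adjusted p 0.154, 0.0635 and 0.258). Without the 5 libraries with atrial transcripts these were 2.90 (SE 0.43, adjusted p 0.0017), 2.28 (SE 0.33, adjusted p 0.00198) and 1.4 (SE 0.34, adjusted p 0.0112), and each passed. Chow renin without its replicates 1 and 3 was also higher than chow control, by 1.49 (SE 0.43, adjusted p 0.0421). That selection was made after the data were seen, and chow control then rests on 3 libraries. Without chow control 3 alone, Ltbp2 was at 2.83 (adjusted p 0.0114) in high-fat renin and at 1.92 (adjusted p 0.0433) in chow renin. Without high-fat control 3 alone, it was at 2.20 against high-fat control (adjusted p 0.0192).

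**Figure D3:**
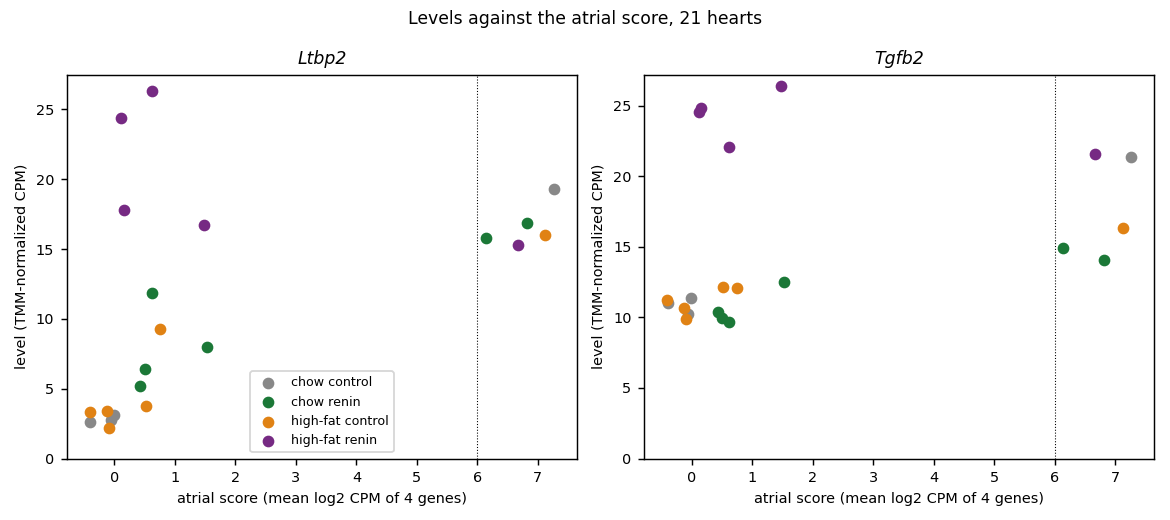
Ltbp2 and Tgfb2 levels (CPM, linear axes from 0) against the atrial score (mean log2 CPM of 4 atrial genes) in 21 hearts, coloured by group; the dotted line marks a score of 6. Among libraries left of the line, high-fat renin hearts hold the 4 highest values of both genes; right of it, Ltbp2 lies between 15.3 and 19.3 CPM in all 5 libraries.

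Ltbp1 (chr17:75005568-75392512), which ties latent TGF-beta to fibrillin and fibronectin, was lower than in both control groups. High-fat renin was at 43.3, 43.7, 44.8, 50.4 and 39.5 CPM. Chow control was at 62.6, 63.0, 49.5 and 60.5 CPM. Chow renin ran from 40.5 to 58.7 CPM with a median of 48.3, and high-fat control from 48.0 to 66.0 CPM with a median of 51.6. In 4 of 5 high-fat renin libraries Ltbp1 was below all of chow control, and in 4 of 5 below all of high-fat control, but in 1 of 5 below all of chow renin, where the log2 difference was -0.13 (SE 0.10, adjusted p 0.4). It fell by 0.41 against chow control (SE 0.11, edgeR adjusted p 0.0237) and by 0.31 against high-fat control (SE 0.10, adjusted p 0.0445). The first call held in 3 of 9 fits that left out 1 library (lost without chow control 1, 2 or 4 or high-fat renin 1, 2 or 5, adjusted p up to 0.0722). The latter held in 4 of 11 (lost without high-fat control 1, 3 or 5 or high-fat renin 1, 2, 3 or 5, up to 0.132), and was lost without the libraries with atrial transcripts (-0.27, adjusted p 0.102) and with a replicate block (adjusted p 0.0891). With the clock score Ltbp1 was at -0.26 (adjusted p 0.767) and -0.22 (adjusted p 0.694) in those comparisons. In chow renin Ltbp1 differed from chow control by -0.28 (SE 0.11) and did not pass (adjusted p 0.0824), but passed without chow control 3 (-0.36, adjusted p 0.0288) or chow renin 6 (-0.34, adjusted p 0.0264).

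Ltbp4 (chr7:27305136-27337692), the most abundant member, separated the 2 renin groups. High-fat renin was at 526.2, 553, 508, 467 and 513 CPM, all above chow renin at 362 to 431 CPM. The rise against chow renin was 0.38 (SE 0.09, edgeR adjusted p 0.00247). Chow control was at 399, 421, 558 and 457 CPM and overlapped high-fat renin, which differed from it by 0.16 (SE 0.10, adjusted p 0.321). Of the 6 chow renin libraries 4 lay below all of chow control. The log2 difference of chow renin from chow control was -0.22 (SE 0.09) and did not pass (adjusted p 0.138). High-fat control, at 395 to 574 CPM, overlapped high-fat renin, and the log2 difference there was 0.07 (SE 0.09, adjusted p 0.642). Ltbp3 (chr19:5740904-5758532) ran from 56.6 to 68.1 CPM in high-fat renin, 44.8 to 76.1 in chow control, 52.7 to 69.4 in chow renin and 50.5 to 77.0 in high-fat control, and passed in no comparison with all libraries and no covariate. Without the libraries with atrial transcripts it was 0.37 higher in high-fat renin than in chow control (SE 0.09, adjusted p 0.0145), and without chow control 3 alone 0.40 higher (adjusted p 0.0334).

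Transcripts of brain cells moved with the chow renin group. Of 15 listed markers of neurons, oligodendrocytes and astrocytes, 15 were tested, and their summed CPM was 410 to 641 in chow renin against 175 to 186 in chow control, 183 to 243 in high-fat control and 138 to 233 in high-fat renin. Aqp4 was at 0 in 4 of the 21 libraries. Chow renin did not overlap the other groups in that score. A fit with it as a covariate left 0 members called against chow renin and in the interaction (2 and 1 at an unadjusted p under 0.05), where it called 41 and 25 of all 15216 genes, against 3440 and 1589 without the score. Tgfb2 then had estimates of 1.32 (adjusted p 0.812) and 1.58 (adjusted p 0.836). The part of these transcripts in those results was not tested.

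Around the 10 members, 72 other genes of the pathway were tested in 4 lists: activation and storage (21 genes), signalling (13), inhibitors (19) and target genes (19 of 20). High-fat renin against chow control called 14 of the 72 higher and 2 lower, where 4.05% of all genes were higher and 4.26% lower. Of these 16 calls 11 remained without the libraries with atrial transcripts, 5 were lost and 10 others were gained, among them Bgn (1.27, adjusted p 6.49e-05), Thbs1 (1.49, adjusted p 0.00284), Lrg1 (-0.61, adjusted p 0.0432) and Ccn1 (0.57, adjusted p 0.0431). The target list had 5 called higher and 0 lower of 19, with a median log2 difference of 0.50 against 0.01 over all genes. Among them were the matrix protein Postn (1.89, edgeR adjusted p 0.0313), the collagen Col8a1 (1.57, adjusted p 0.00133), the protease inhibitor Timp1 (1.47, adjusted p 0.00561) and the collagen cross-linker Loxl2 (0.72, adjusted p 0.0281). Without the libraries with atrial transcripts 10 of 19 were called higher, among them Comp (2.31, adjusted p 0.00438) and Nox4 (1.01, adjusted p 0.0224). That fit called 614 of 15142 genes higher. With all libraries Comp was at -0.02 (SE 1.13, adjusted p 0.993) and Nox4 at 0.37 (SE 0.43, adjusted p 0.646), so both calls rest on that selection, made after the data were seen. Dcn and Col1a1 of these lists are also on the fibroblast marker list.

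Inhibitors of the pathway were called in both directions. The pseudo-receptor Bambi rose by 1.11 (edgeR adjusted p 0.00132), the activin antagonist Fstl3 by 0.997 (adjusted p 0.0128), Aspn, a small proteoglycan that binds TGF-beta, by 0.73 (adjusted p 0.0123), and Pmepa1, which sequesters SMADs, by 0.68 (adjusted p 0.0107). The protease Htra1 fell by 0.52 (adjusted p 0.000473). Of the activation and storage genes, Fbn1, the fibrillin that holds binding proteins, rose by 0.87 (adjusted p 0.0472), Tgm2, a cross-linking enzyme, by 0.40 (adjusted p 0.0459) and the integrin Itgb1 by 0.26 (adjusted p 0.0363), and the gelatinase Mmp9 fell by 1.35 (adjusted p 0.045). Tgm2 (0.47, adjusted p 0.0607), Itgb1 (0.28, adjusted p 0.0743) and Mmp9 (-1.39, adjusted p 0.0631) were no longer called without the libraries with atrial transcripts. Their estimates were no smaller in size there. The signalling list had 2 of 13 called, both by small amounts, the phosphatase Ppm1a (0.22, adjusted p 0.0317) and the kinase Map3k7 (0.21, adjusted p 0.0389). Without those libraries 0 of 13 were called, with these genes at 0.22 (adjusted p 0.123) and 0.21 (adjusted p 0.13).

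Against high-fat control, 13 of the 72 rose and 2 fell, where 6.07% of all genes were higher and 5.08% lower. The target list had 5 higher and 0 lower of 19 (median 0.53 against -0.01 over all genes), among them Col8a1 at 1.62 (edgeR adjusted p 0.00048), Timp1 at 0.94 (adjusted p 0.024), Loxl2 at 0.76 and Ccn1, a matricellular protein, at 0.54. Without the libraries with atrial transcripts 9 were called higher, where 758 of 15142 genes were called higher. Bgn, a proteoglycan that binds TGF-beta, rose by 0.87 (adjusted p 0.0305), Fstl3 by 0.88 (adjusted p 0.00961) and Bambi by 0.66 (adjusted p 0.0117), while Lrg1, a secreted modulator of TGF-beta signalling, fell by 0.57 (adjusted p 0.0189). Pmepa1 rose by 0.50. Fbn1 rose by 0.93 (adjusted p 0.0163) and Tgm2 by 0.37 (adjusted p 0.0336), and of the signalling genes Map3k7 by 0.26 (adjusted p 0.00635) and the deubiquitinase Usp15 by 0.24 (adjusted p 0.0386). Of these 15 calls 13 remained without the libraries with atrial transcripts, and 7 others were gained. Tgm2 (0.40, adjusted p 0.0563) and Usp15 (0.22, adjusted p 0.136) were lost, with estimates of about the same size.

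Renin on chow left the members uncalled but called 12 of the 72 pathway genes higher and 1 lower, where 10.1% of all genes were higher and 3.36% lower. The brain cell markers moved with this group, and with their score as a covariate 47 of all 15216 genes were called, against 2048 without it. Their part in the calls that follow was not tested. Of the target genes 5 of 19 were called higher and 0 lower, with a list median of 0.02 against -0.03 over all genes, led by the cytokine Il11 (2.02, edgeR adjusted p 3.22e-09) and the cross-linking enzyme Lox (2.01, adjusted p 5.3e-07), with Timp1 (1.64, adjusted p 0.000403) and Ccn1 (0.66, adjusted p 0.00191). Of the activators, Thbs1, the thrombospondin that frees latent TGF-beta, rose by 1.72 (adjusted p 0.00262), the plasminogen activator Plau by 1.49 (adjusted p 9.44e-06), fibronectin Fn1 by 1.09 (adjusted p 0.000923) and the integrin Itgb3 by 0.84 (adjusted p 0.00965). Of the 13 calls, Itgb3 was the one lost without the libraries with atrial transcripts (0.70, adjusted p 0.0657), and 2 others were gained, Fstl3 (0.72, adjusted p 0.0249) and Mmp2 (0.53, adjusted p 0.00831). The activin antagonist Fst rose by 1.19 (adjusted p 0.0269), the co-receptor Cd109 by 0.93 (adjusted p 0.00652) and the repressor Tgif1 by 0.44 (adjusted p 0.0468), and Htra1 fell by 0.35 (adjusted p 0.00149). The signalling list had 0 of 13 called. The high-fat diet alone called 0 of the 72 by edgeR, with 8 at an unadjusted p under 0.05.

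Several of these genes separated the 2 renin groups. In high-fat renin against chow renin, 21 of the 72 were higher and 9 lower, where 9.80% of all genes were higher and 12.8% lower. The share of lower calls was near that of all genes. Il11 fell by 2.21 (edgeR adjusted p 8.49e-11), Plau by 1.96 (adjusted p 1.19e-07), Fst by 1.48 (adjusted p 0.0019) and Lox by 1.35 (adjusted p 1.48e-05), while Postn rose by 1.72 (adjusted p 0.00895), Col8a1 by 1.12 (adjusted p 0.000687) and Col3a1 by 1.08 (adjusted p 0.0128). Fn1 fell by 0.81 (adjusted p 0.00427), Itgb3 by 0.66 (adjusted p 0.0169) and the integrin Itgb8 by 0.64 (adjusted p 0.0493), and Fbn1 rose by 0.90 (adjusted p 0.00834). Of 19 inhibitors 8 were higher, led by Bambi at 0.99, Bgn at 0.84 and Pmepa1 at 0.72, and 3 lower, among them Fst and Cd109 at -0.70. Signalling genes called were Eng, an endothelial co-receptor, at 0.35, Map3k7 at 0.27 and Ppm1a at 0.19. Of the 30 calls 23 remained without the libraries with atrial transcripts, 7 were lost and 7 others were gained. Among the lost were Itgb3 (-0.59, adjusted p 0.0587), Itgb8 (-0.63, adjusted p 0.0664), Eng (0.31, adjusted p 0.123) and Ppm1a (0.15, adjusted p 0.22). The interaction called 3 of the 72 higher and 5 lower, where 3.14% of all genes were higher and 7.30% lower, shares near those of the list. It was negative for Il11 (-2.15, adjusted p 5.4e-07), Lox (-1.85, adjusted p 9.51e-05), Fst (-1.65, adjusted p 0.0317), Plau (-1.60, adjusted p 0.000274) and Fn1 (-0.94, adjusted p 0.035). It was positive for Col8a1 (1.18, adjusted p 0.0211), Loxl2 (0.95, adjusted p 0.0182) and Map3k7 (0.31, adjusted p 0.0167), as it was for Tgfb2 and Tgfb3. The interactions of Fn1 (-0.93, adjusted p 0.0684) and Map3k7 (0.31, adjusted p 0.104) did not pass without those libraries, though their estimates hardly moved. Those of Bgn (0.89, adjusted p 0.00256), Nox4 (1.26, adjusted p 0.0312) and Thbs1 (-1.11, adjusted p 0.0498) then passed.

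**Figure D4:**
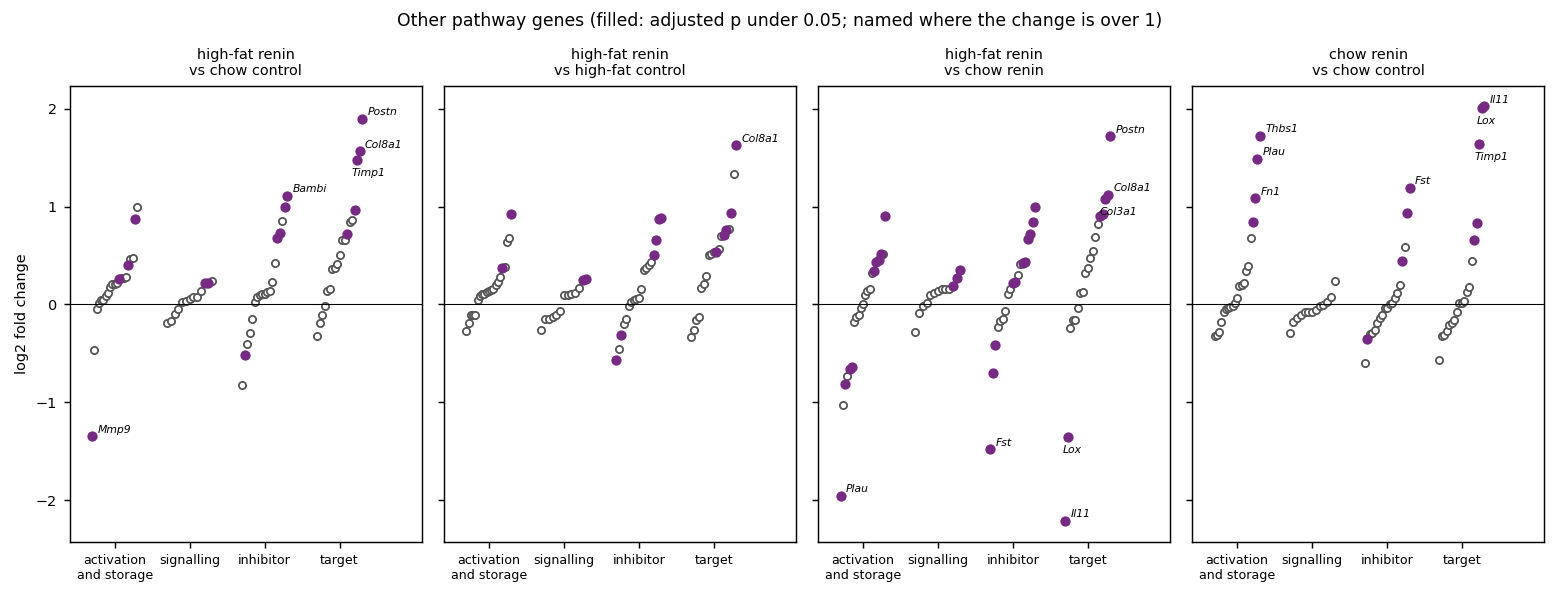
Log2 fold changes of the 72 tested pathway genes by list in 4 comparisons; filled points passed at an adjusted p under 0.05, and those past 1 in size are named. Target genes called in high-fat renin against chow control include Postn (1.89) and Col8a1 (1.57), and those in chow renin Il11 (2.02) and Lox (2.01).

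Among hearts of the same group, members followed the fibroblast score to different degrees (mean log2 CPM of 6 of 6 markers, Pdgfra, Tcf21, Dcn, Lum, Col1a1 and Dpep1). Pearson r of the deviations from the group means over 21 libraries was 0.878 for Ltbp3, 0.815 for Ltbp2, 0.813 for Tgfb3, 0.779 for both Tgfb2 and Tgfbr2 and 0.715 for Ltbp4. It was lower for Tgfbr1 (0.526), Tgfbr3 (0.376), Tgfb1 (0.214) and Ltbp1 (0.046). With the atrial score it was 0.811 for Ltbp3, 0.768 for Tgfb2 and 0.725 for Ltbp2. In the same order it was 0.755, 0.736 and 0.713 with the adipose score and 0.703, 0.695 and 0.739 with the smooth muscle score. The points share library and depth, so the values are descriptions. Fibroblast marker sums were 531 to 773 CPM in high-fat renin, 414 to 722 in chow control, 383 to 587 in chow renin and 436 to 839 in high-fat control, and no listed fibroblast marker was at 0 in any library. With the fibroblast score as a covariate, chosen after the data were seen, Tgfb2 was at 0.62 against chow control (SE 0.12, edgeR adjusted p 0.0038) and 0.90 against high-fat control (SE 0.11, adjusted p 7.93e-05). Against chow renin 4 members were then called in place of 6, while 4043 of all 15216 genes were called in place of 3440. There Tgfb2 went from 1.0 to 0.69 (adjusted p 0.000117) and Tgfb3 from 0.63 to 0.36 (adjusted p 0.00607), and both passed. Tgfbr1 went from 0.43 to 0.28 (adjusted p 0.103) and Tgfbr2 from 0.33 to 0.13 (adjusted p 0.248), so that both missed, while Ltbp4 went from 0.38 to 0.23 and passed (adjusted p 0.0249). Ltbp2 against chow renin was then estimated at 0.054, against 0.91 without the score, and passed under neither fit. In chow renin against chow control, Ltbp2 (1.20, adjusted p 0.0475) and Ltbp3 (0.21, adjusted p 0.0438) passed with the score.

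**Figure D5:**
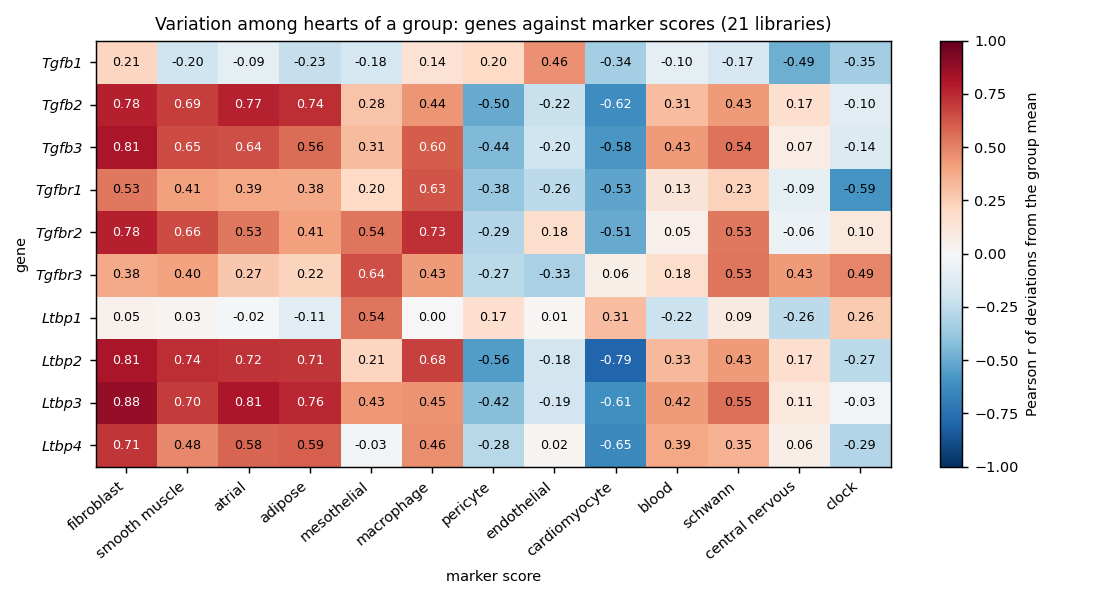
Pearson r between each member and marker scores, computed on deviations from the group mean of log2 CPM over 21 libraries. The fibroblast column runs from 0.046 for Ltbp1 to 0.878 for Ltbp3, and the cardiomyocyte column is lowest for Ltbp2 at -0.794.

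Members also varied with each other within groups. Of 45 pairs, 38 had a positive r and 17 an r over 0.5, with Tgfb2 and Ltbp3 the closest (0.869), then Tgfb2 and Ltbp2 (0.843). Ltbp1 and Ltbp4 were the most opposed (-0.454). Among 10062 well-read genes, those nearest to Tgfb2 were Prelp (0.92), Dap (0.914) and Serpinf1 (0.895). For Ltbp2 they were the matrix genes Cilp (0.954), Bgn (0.952) and Mfap4 (0.945). Tgfb3 was closest to Prss23 (0.889), Ltbp3 to Igfbp5 (0.945) and Ltbp4 to Ssc5d (0.882). The receptors were closest to Degs1 (Tgfbr1, 0.797), Fxyd5 (Tgfbr2, 0.898) and Kcnd2 (Tgfbr3, 0.856), Ltbp1 to Erc1 (0.903) and Tgfb1 to Plekhg5 (0.823).

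The files list transcripts, so the make-up of each gene could be read. Tgfb3 is listed with 1 transcript, and Tgfb1-201, Tgfb2-201, Tgfbr1-201 and Tgfbr3-201 held 92.5%, 81.0%, 96.9% and 99.8% of their gene's TPM. Tgfbr2 was split between Tgfbr2-201 (66.4% of TPM) and the longer Tgfbr2-202 (33.6%), which held 55.4% of the reads. Exact permutation tests of the leading transcript's share called 0 of 45 after adjustment, with 5 at an unadjusted p under 0.05. With this few libraries no share could pass by its own separation alone. The smallest was for Ltbp4-205, at 87.3, 88.7, 88.9, 88.8 and 91.4% of Ltbp4 TPM in high-fat renin and 79.6 to 85.7% in chow renin, groups that did not overlap (exact two-sided permutation p 0.00433, the smallest that 5 against 6 libraries allow, adjusted p 0.195).

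The authors' deposited table carries a log2 fold change and adjusted p for high-fat diet with virus, with no reference group named. In the authors' deposited table Tgfb2 has 0.50 (adjusted p 0.00811), Tgfbr1 0.37 (adjusted p 0.0124) and Ltbp1 -0.27 (adjusted p 0.029), and the other 7 members are at adjusted p of 0.0647 or more.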

How the data were processed

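Heart RNA in 21 libraries of 4 groups was analysed, with groups and replicate numbers taken from the sample titles. The submitters' processing notes name Salmon 1.10.2 and DESeq2 1.40.2 and the build GRCm38. Per the file headers, the authors deposited a transcript table for each library with estimated counts (not whole numbers, not normalized), in which reads shared by transcripts are apportioned, and with TPM, which corrects for effective length. A gene matrix, deposited by the authors, holds a normalized signal for each library, which was used only to find the members. Beside it the authors' log2 ratios and p-values (adjusted) for their own contrast were deposited.

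Transcripts (97.95% of 119215 matched) were summed to genes with GENCODE M21, and estimated counts were rounded, since raw counts had been planned for. Unmatched transcripts held 0.854 to 0.925% of reads. Tests used edgeR 4.0.16 in R 4.3.3 (filterByExpr, TMM, robust quasi-likelihood F test), a single fit over 21 libraries, with Benjamini-Hochberg adjustment over 15216 genes and calls at an adjusted p under 0.05. SE is the absolute log2 fold change over the square root of F. Alternatives were other scalings, no filter, thinning, a replicate block, marker scores as covariates and single libraries left out; the fibroblast score as a covariate and leaving out the libraries with atrial transcripts were added after the data were seen. Another tool was DESeq2 1.42.0 on the counts, and a further one limma 3.58.1 on log2(TPM + 1). Transcript shares were tested with scipy 1.17.1. The fit was tested on simulated data.

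All 10 members are named, and of each pathway list at most the 5 called genes with the largest change per comparison, beside Comp, Nox4 and other genes whose call changed without the libraries with atrial transcripts, chosen after their values were seen; a gene of these lists is not reported here. The members and lists were chosen with earlier results of these data known. The labels do not tie each library to an animal, so p-values measure the spread between these samples. No pair of a group agreed within sampling noise (chi-square per gene 3.51 to 55.6). Upstream sequences are from RefSeq (GRCm38.p6). Libraries of 18.7 to 29.3 M reads gave at least 48 reads of any member.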

Additional observations from a re-analysis of the deposited data

Results flagged for a closer look

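In 6 of 40 sets of a member in a group, 1 library stood far from the rest of its group, where chance alone gives about 1 set in 20. The members are read in the same libraries and vary together, so the 40 sets are not independent. An excess over chance was not tested. In chow control 3, Tgfb2 was at 21.4 CPM (the others at 10.2 to 11.3) and Ltbp2 at 19.3 CPM (the others at 2.59 to 3.10). High-fat control 3 held Tgfb2 at 16.3 CPM (the others at 9.89 to 12.2). Both libraries carry atrial transcripts. High-fat renin 1 held Tgfbr1 at 23.0 CPM (the others at 14.5 to 15.8), chow control 1 held Tgfbr3 at 45.7 CPM (the others at 33.7 to 34.7), and chow renin 2 held Tgfbr2 at 42.4 CPM, below the others at 51.1 to 54.9. None of those libraries has an atrial score over 6.

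The effect of renin differed between diets for 2 members by edgeR's interaction test: Tgfb2 by 1.16 (adjusted p 0.00262; 32 of 33 alternatives called it) and Tgfb3 by 0.63 (adjusted p 0.0393; 12 of 33).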

How the results depend on the processing

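Tgfb2 kept its direction under every alternative run in the 3 comparisons of high-fat renin and in the interaction, and was called in each fit that left out 1 library. Of 10 members, 3 were called in high-fat renin against chow control, with 5 by DESeq2, 5 with the atrial score as a covariate, 7 without the libraries with atrial transcripts, 1 by limma on log2(TPM + 1) and 0 with the clock score (1 at an unadjusted p under 0.05), a fit that called 0 of all 15216 genes here and against high-fat control. In the order given, the other fits called 1608 of 15890, 1519 of 15216, 1263 of 15142 and 689 of 15216 genes, against 1265 in the main fit. Against high-fat control 5 were called, with 3 under upper-quartile factors, without a filter on low counts, by limma and when thinned to the smallest library, 2 with a transcript length offset or the central nervous score, and 0 with the clock score (2 at an unadjusted p under 0.05). Over all genes the fits with 3 called 1730, 1316, 1700 and 1616 and those with 2 called 1066 and 1027, against 1696 in the main fit. Against chow renin 6 were called, with 3 by limma and 0 with the central nervous score (2 at an unadjusted p under 0.05), which called 41 of all genes against 3440 without it. Limma called 2447 of all genes there. The interaction called 2, with 1 under upper-quartile factors, without the filter, by limma, when thinned or without the libraries with atrial transcripts, and 0 with the central nervous score (1 at an unadjusted p under 0.05, and 25 of all genes against 1589). In the order given, the fits with 1 called 1481, 1359, 1124, 1466 and 1086 of all genes. Chow renin against chow control called 0, with 1 without the libraries with atrial transcripts and 2 with the fibroblast score (1556 and 2504 of all genes, against 2048). The share of all called genes that were higher against chow renin was 43.3%, 27.3% under upper-quartile factors and 11.3% by limma on log2(TPM + 1). In the interaction it was 30.1%, 19.0% and 18.7%, in chow renin 75.0%, 86.0% and 97.5%, and against high-fat control 54.4%, 47.3% and 89.4%. The cause of these changes was not tested.

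Leaving out 1 library gave 1 to 6 called against chow control, 1 to 4 against high-fat control, 4 to 7 against chow renin, 1 to 2 in the interaction, 0 to 2 in chow renin and 0 to 0 in high-fat control. Calls over all genes moved too, from 566 to 1723 against chow control (1265 with all libraries) and from 696 to 2394 against high-fat control (1696). They ran from 2473 to 3667 against chow renin (3440) and from 1220 to 1951 in the interaction (1589). In chow renin they ran from 1512 to 2268 (2048) and in high-fat control from 0 to 57 (10). The member count against chow control was 6 without chow control 3 (1339 of all genes). It was 1 without chow control 2, chow control 4 or high-fat renin 1 (623, 566 and 664 of all genes). Against high-fat control it was 1 without high-fat renin 1, 2 or 5, 2 without high-fat control 4 or 5, and 3 without high-fat control 1, 2 or 6 or high-fat renin 3. Chow renin gave 2 without chow control 3 and 1 without chow renin 6. In the interaction 15 of 21 such fits called 1.

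Over the 60 estimates (10 members in 6 comparisons) 74 of 1440 refits reversed the sign, in 28 estimates; 1 of these refits was of a called estimate, and 0 were called after reversal. Among the estimates given in the text or called in any fit, those reversed were, in chow renin against chow control, Ltbp2 at -0.0418 with the clock score and -0.37 with the central nervous score, and with the latter Ltbp1 at 0.0255 and Ltbp3 at -0.0706. Tgfb2 in high-fat control against chow control was at 0.0355 without the libraries with atrial transcripts, and Ltbp4 against high-fat control at -0.0194 with the clock score. With 1 library left out, Tgfb2 ran from -0.28 to 0.13 in chow renin and from -0.27 to 0.15 in high-fat control, both highest without chow control 3. Against chow renin the central nervous score gave Tgfb1 -0.19 and Tgfbr3, the called estimate, 0.21. The transcript test called 0 under each of its alternatives. A share at the smallest p in them (0.00433, exact permutation test) had an adjusted p of 0.195, so by its own separation alone no share could pass.

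The labels give replicate numbers but no shared animal, litter or day, so the libraries were not taken as paired. Same-numbered libraries of different groups correlated from -0.22 to 0.42 over 28 pairs (median 0.074), with 11 over 0.1, against 24 of 136 pairs with other numbers (median -0.01). Replicate 3 of each of the 4 groups carries atrial transcripts. With a replicate block, 4 members were called against chow control, 5 against high-fat control, 7 against chow renin, 2 in the interaction and 0 for either treatment alone. Of all 15216 genes that fit called 1326, 1577, 3670 and 1615 in the first of these, 2246 in chow renin and 0 in high-fat control. The block ended the call of Ltbp1 against high-fat control (adjusted p 0.0891) and added Ltbp2 there (adjusted p 0.0338), Tgfb3 against chow control (0.0318) and Tgfb1 against chow renin (0.0365). Depth limits the low genes most: Ltbp2 had 48 to 700 reads a library.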
